A study of Mus musculus with 30 samples.

Results

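Bone was compared with the tissues of the series that hold little skeletal muscle, to describe the skeletal and blood-forming genes that its RNA carries. The members are the 2 arrays whose labels name bone, of 30 arrays over 15 tissues. The labels do not mention marrow. The comparison group was the mean of 11 tissues with 22 arrays (brain cortex, cerebellum, eyes, lung, liver, kidney, bladder, stomach, small intestine, large intestine and fat), and heart, skin and skeletal muscle were left out of that mean. Skeletal muscle, with 2 arrays, served to set aside genes that muscle attached to bone could bring. All tissues were from male C57BL/6 mice of 28 weeks with no treatment named, by the labels, and the methods of the study give a slightly higher age. On every array the tissue RNA was labelled with Cy3 and a common reference with Cy5. The reference combined RNA of ES (embryonic stem) cells with a pool from cultured mouse lines, which included lymphocyte, macrophage, myoblast and embryo lines. The value is log2(Cy3/Cy5), so 0 is the level of the reference, and a gene dim in both channels also lies near 0. The series description gives bone a single replication, whereas 2 bone arrays carry labels. The methods of the study state that replications came from different animals. As these sources differ for bone, p-values may measure only the spread between these arrays.

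Bone is a mineralised tissue that osteoblasts build from a collagen matrix and that osteoclasts resorb with acid and enzymes. Its ends carry joint cartilage rich in proteoglycans. Its cavities hold marrow, in which dividing precursors give rise to red cells, platelets and leukocytes throughout adult life, and precursors of red cells make haem in quantity. In a whole tissue, fewer cells of a type and less RNA per cell cannot be told apart.

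Of 21026 probes tested, 2015 (9.58%) were higher in bone than in the mean of the 11 tissues and 2195 (10.4%) were lower, with limma's adjusted p under 0.05 and a log2 difference of at least 1. With median centring of each array in place of loess the split was 1221 against 2808 (30.3% of the calls higher in place of 47.9%), and the median difference over all probes was -0.20 in place of -0.08. Of the higher probes, 673 (33.4%) were at least as high in skeletal muscle and were set aside, which left 1342 probes, 6.38% of those tested. Both bone arrays lay above all 22 arrays of the 11 tissues for 920 probes (4.38%) and below them for 308 (1.46%). Across probes each bone array was closest to the other bone array (r = 0.85) and next to the muscle arrays (r from 0.70 to 0.73), where probes are not independent replicates. Symbols were known for 5049 of the tested probes (24.01%) and for 272 of the 1342. The best known marker genes of the tissue, among them Col1a1, Bglap1, Ctsk, Col2a1, the globins, Alas2, Mpo and Pf4, had no named probe. Other genes of the same cells are described in their place. They were chosen with earlier results of these data known, so they are no independent check of the label.

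The named genes were grouped into lists by role. Beside a median difference of -0.08 over all probes, the median was 2.02 for 8 genes of leukocytes in general, 1.95 for 46 genes of cell division, 1.77 for 4 megakaryocyte and platelet genes and 1.58 for 14 erythroid and haem genes. It was 0.77 for 21 genes of the osteoblast lineage and bone matrix, 0.72 for 18 myeloid genes, 0.63 for 8 genes of cartilage and joint matrix, 0.51 for 4 osteoclast genes and 0.28 for 21 lymphoid genes. This order depended on the bone arrays. Without bone replicate 1 the medians were 1.83 for leukocyte, 1.45 for cell division, 1.40 for osteoblast and matrix, 1.198 for erythroid, 0.91 for cartilage and 0.48 for platelet genes, and without bone replicate 2 they were 2.21, 2.45, 0.20, 1.94, -0.04 and 3.12 in the same order. The skeletal muscle list lay furthest, with a median of 2.87 over 22 genes.

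**Figure D1:**
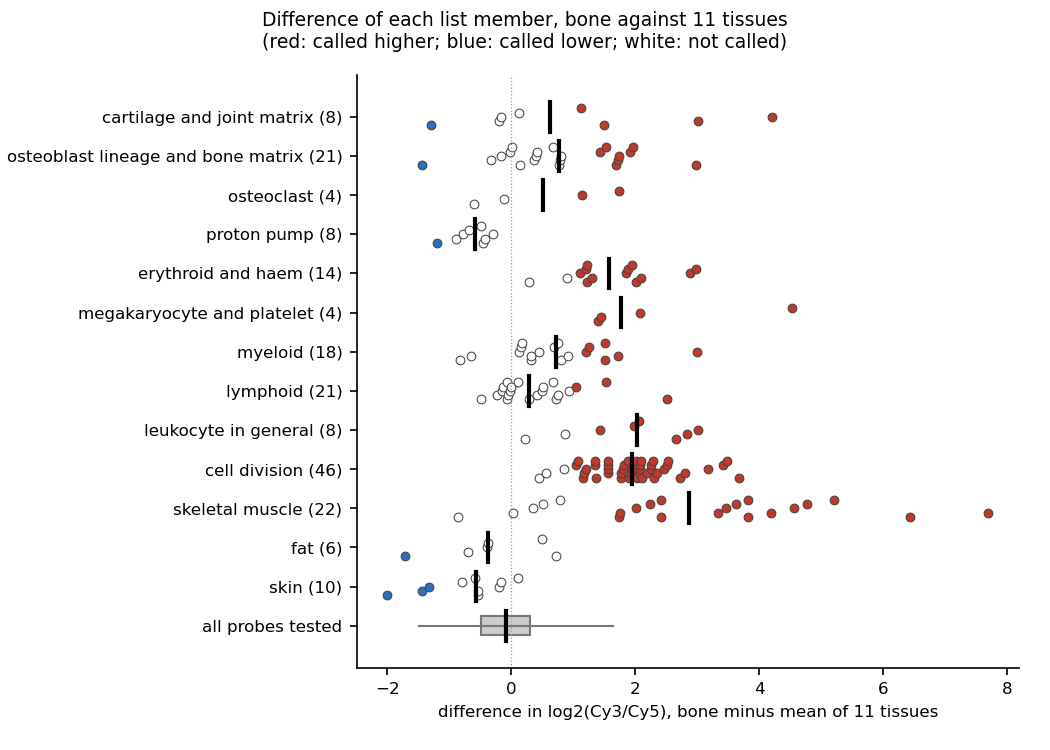
Difference in log2(Cy3/Cy5) between bone and the mean of 11 tissues for each member of 13 gene lists (points, number measured in parentheses), with the list median as a black bar and, for all probes tested, the median, the quartiles (box) and the 5th and 95th percentiles (line). All cell division and erythroid genes lie right of 0 and all proton pump genes left of it.

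Of 8 cartilage and joint genes, 4 were higher in bone (50%, beside 9.58% of all probes), all above muscle, and Ihh was lower. The count was 2 with median centring and 2 without bone replicate 2. Prg4, which encodes the joint lubricant lubricin, had log2 ratios of 3.87 and 8.62 on the bone arrays, against a lowest value of -0.20, a median of 1.43 and a highest of 7.34 on the 22 arrays. The highest were the 2 liver arrays, and only bone replicate 2 lay above them. The muscle arrays were at 4.43 and 3.23, so bone replicate 1 lay between them. Prg4 differed by 4.21 (SE 0.67, adjusted p = 5.64e-05, 18.5-fold), by 6.58 without bone replicate 1 and by 1.84 without bone replicate 2. Fmod encodes fibromodulin, a small proteoglycan that binds collagen fibrils. Its ratios were 2.41 and 3.26 in bone against -1.29, -0.52 and 1.87 as the lowest, median and highest of the 22, so the groups did not overlap. Its difference was 3.01 (SE 0.47, adjusted p = 4.74e-05). In muscle Fmod was at 2.46 on replicate 1, level with bone replicate 1, and the mean of both muscle arrays was 0.73.

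Acan encodes aggrecan, the main proteoglycan of cartilage. It was at -0.14 on bone replicate 1 and 2.67 on bone replicate 2, and the 22 arrays ran from -0.78 through a median of -0.48 to 1.15. Only replicate 2 lay above all of them. The difference of 1.49 (SE 0.36, adjusted p = 0.00253) was lost without bone replicate 2 (0.08, adjusted p = 0.692). Chi3l1, a glycoprotein secreted by chondrocytes and macrophages, was at 1.66 and 2.20 in bone, within a range of -0.30 to 3.53 (median 0.09) that was topped by lung. It differed by 1.13 (SE 0.13, adjusted p = 1.14e-06), and by 0.86 without bone replicate 2, under the size required. Ihh, the hedgehog ligand of growth plate cartilage, was at 0.11 and 0.07 in bone and well above background on 1 of its arrays, against -0.01, 0.70 and 4.42 as the lowest, median and highest of the 22, with large intestine on top. Ihh fell by 1.30 (SE 0.24, adjusted p = 0.000203), and was not called with processed signals (-0.41, adjusted p = 0.616), the value table (-0.80) or median centring (-0.85). Col9a1, Prelp and Optc did not pass the test, with differences between -0.19 and 0.13.

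In the osteoblast lineage and bone matrix list, 8 of 21 genes were higher (38.1%, beside 9.58% of all probes). Of the 8, 6 were also above muscle, and 1 other gene was lower. None of the 21 had both bone arrays above all 22, a count near the 4.38% of all probes. The fibrillar collagen gene Col3a1 was at -0.62 and 2.19 in bone and at -5.46, -2.17 and 1.03 as the lowest, median and highest of the 22. Replicate 2 lay above all of them and replicate 1 inside their range. Col3a1 differed by 2.99 (SE 0.45, adjusted p = 3.05e-05, 7.93-fold), and by 4.39 and 1.58 without bone replicate 1 and without bone replicate 2. Col5a2, another fibrillar collagen chain, was at 0.13 and 1.21 against -2.69 to 0.66 (median -0.92) and differed by 1.69 (SE 0.32, adjusted p = 0.000265). Bone had the highest Col5a2 mean of the 15 tissues. Fn1, fibronectin, was at -3.21 and 0.62 against -4.71 to 0.02 (median -3.02). Its difference of 1.43 (SE 0.51, adjusted p = 0.0302) rested on bone replicate 2. It was 3.35 without bone replicate 1 and -0.49 (adjusted p = 0.203) without bone replicate 2.

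Ptprv encodes a phosphatase known from osteoblasts, and was at -1.48 and -1.08 in bone against -4.14, -3.36 and -0.33. Of the 22, fat replicate 1 alone was above bone. Ptprv differed by 1.97 (SE 0.36, adjusted p = 0.000232). Tnn encodes tenascin-W, a matrix protein of periosteum and osteoblasts, and was at 2.45 and 1.87 in bone. The 22 arrays ran from -0.56 through a median of -0.30 to 2.99, only 5 of them were well above background, and the 2 stomach arrays lay above bone. The difference in Tnn was 1.92 (SE 0.19, adjusted p = 1.62e-07), and 4.315 with the value table, so its size depends on the processing. Adamts2, the enzyme that trims procollagen, was at 0.34 and 1.25 against -3.11 to 2.84 (median -1.32) and differed by 1.74 (SE 0.29, adjusted p = 9.96e-05). Fat replicate 2, which shared a slide with bone replicate 2, was 1.59 above it in Adamts2, so within that slide the direction was the opposite one.

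Prrx1 and Igfbp5 were higher than in the 11 tissues but not above muscle, and were set aside. Prrx1, a transcription factor of limb mesenchyme, differed by 1.53 (SE 0.20, adjusted p = 5.60e-06) with a mean of -0.68 in bone and -0.60 in muscle. Igfbp5, which binds insulin-like growth factors, differed by 1.72 (SE 0.33, adjusted p = 0.000370) with 4.91 in bone and 5.43 in muscle. Spp2, a phosphoprotein secreted by liver and bound in bone matrix, was at 0.10 and 0.08 in bone and fell by 1.43 (SE 0.12, adjusted p = 3.37e-08). The call was lost with processed signals (-0.28, adjusted p = 0.628) and with the value table (-0.42, adjusted p = 0.460). In Spp2 the liver arrays, at 8.07, and the kidney arrays, at 7.45 and 7.43, were far above the median of 0.20 over the 22, and no other array of the 22 was above 1.09. The other 12 genes did not pass the test, with differences from -0.33 for Bmpr2 to 0.80 for Angptl2. Without bone replicate 1 the count of genes higher in the list was 14, and without bone replicate 2 it was 7.

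Of 4 osteoclast genes, 2 were higher, beside 9.58% of all probes, and 1 was higher with median centring. Acp5 encodes tartrate-resistant acid phosphatase, the enzyme by which osteoclasts are stained. It was at 3.76 and 3.41 in bone and at -1.64, 2.77 and 4.10 as the lowest, median and highest of the 22, so the groups overlapped, with liver above bone. Acp5 differed by 1.74 (SE 0.20, adjusted p = 1.64e-06) from the mean of the 11 tissues. It was 3.76 above muscle, but within its slides it was level with large intestine (-0.08) and with fat (-0.03). Trem2, a receptor of osteoclasts, macrophages and microglia, was at -0.53 and -0.52 within -3.14 to 0.13 (median -1.65), topped by brain cortex. It differed by 1.15 (SE 0.20, adjusted p = 0.000150).

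Tnfrsf11a, the receptor RANK through which osteoclasts form, was well above background on neither bone array and on only 3 of the 22. Clcn7, the chloride transporter that works with the proton pump, was at 0.88 and -0.02 in bone. Its difference of -0.60 (SE 0.23, adjusted p = 0.0407) was under the size required. A further gene, deposited as 4833422F24Rik and now named Ocstamp, encodes a membrane protein of fusing osteoclasts and was no member of the 4. It was at 2.77 and 1.07 in bone against -0.63, -0.31 and 0.82, with no overlap. Ocstamp differed by 2.06 (SE 0.26, adjusted p = 3.54e-06), and by 1.21 without bone replicate 1, while the muscle arrays, at 1.68 and 1.51, lay between the bone arrays. Of the 8 subunits of the vacuolar proton pump that acidifies lysosomes and the resorption pit, none was higher, beside 9.58% of all probes. All 8 differences were negative, from -0.30 for Atp6v1f to -1.204 for Atp6v1h, and Atp6v1h alone passed the test (SE 0.25, adjusted p = 0.000673), a share near the 10.4% of all probes. That call was lost with slide or scan day as a block and against 14 tissues, and within slides bone replicate 1 was above large intestine for 5 of the 8 and bone replicate 2 above fat for 1 of the 8.

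**Figure D2:**
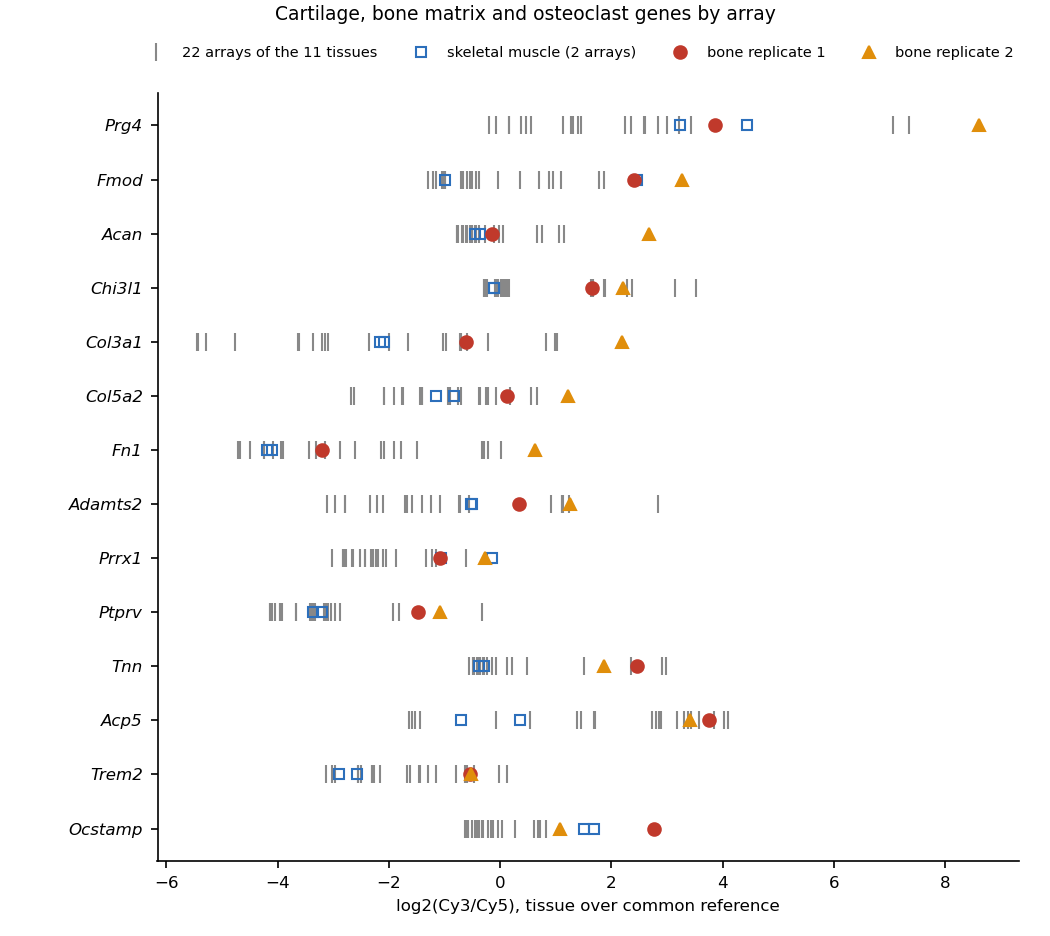
Log2(Cy3/Cy5) of 14 cartilage, bone matrix and osteoclast genes on bone replicate 1 (circle), bone replicate 2 (triangle), the 2 muscle arrays (squares) and the 22 arrays of the 11 tissues (ticks). Prg4, Acan, Col3a1 and Fn1 lie far apart on the 2 bone arrays, and Acp5 and Trem2 close together inside the range of the other tissues.

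In the erythroid and haem list, 12 of 14 genes were higher in bone (85.7%, beside 9.58% of all probes). Of the 12, 9 were also above muscle. With median centring 7 were higher. The leading genes of this kind came from outside the list, by size of difference. Tspo2, deposited as Bzrpl1, encodes a membrane protein of maturing red cells. It was at 5.33 and 5.05 in bone, against -0.03, 0.45 and 1.94 as the lowest, median and highest of the 22, and at 0.40 and 0.37 in muscle. The difference was 4.61 (SE 0.15, adjusted p = 1.18e-13, 24.4-fold). Tent5c, deposited as 4930431B09Rik, encodes a poly(A) polymerase of red cell precursors and plasma cells. It was at 3.22 and 2.67 against -4.12, -1.53 and 1.01 and differed by 4.63 (SE 0.25, adjusted p = 1.09e-10, 24.7-fold). Both genes differed by 4.35 or more with either bone array left out.

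Slc25a37, mitoferrin, carries iron into the mitochondria of red cell precursors. It was at 3.22 and 2.08 in bone, against -1.15, -0.32 and 1.56 as the lowest, median and highest of the 22, and differed by 2.88 (SE 0.23, adjusted p = 1.82e-08). No array of the 22 reached bone, and the mean in muscle was -0.03. Without bone replicate 1 the difference in Slc25a37 was 2.31 and without bone replicate 2 it was 3.45. Abcb10, a mitochondrial transporter that works with mitoferrin, was at 3.69 and 1.99 against 0.01 to 2.00 (median 0.64), and replicate 2 was level with small intestine. It differed by 2.01 (SE 0.27, adjusted p = 9.80e-06), and by 1.16 without bone replicate 1.

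Several of the other haem and red cell genes were also high in muscle. Bpgm, which makes the bisphosphoglycerate that lowers the oxygen affinity of haemoglobin, was at 2.87 and 2.68 in bone with no overlap with the 22 (-0.11, 0.82 and 2.03) and at 2.29 and 2.42 in muscle. It differed by 1.95 (SE 0.16, adjusted p = 2.10e-08). Tmcc2 was at 3.69 and 1.98, with muscle at 2.75 and 2.62 between them and cerebellum up to 2.97, and differed by 2.09 (SE 0.29, adjusted p = 1.40e-05), and by 1.23 without bone replicate 1. The iron exporter Slc40a1 and the water channel Aqp1 differed by 1.88 (SE 0.41) and 1.85 (SE 0.24) and their bone means exceeded muscle by 0.05 and 0.31. Riok3 and the haem enzyme Urod differed by 1.23 (SE 0.22) and 1.22 (SE 0.23) and were set aside as higher in muscle. Dyrk3 and the glycine transporter Slc25a38 differed by 1.30 (SE 0.18) and 1.21 (SE 0.20), and fell to 0.78 and 0.59 without bone replicate 1, under the size required. In muscle Dyrk3 was at -3.02 and -2.91 and Slc25a38 at 0.26 and 0.35, below both bone arrays. Abcb6 (0.90) and Steap3 (0.29) did not pass the test. The list was not confined to bone among tissues, since its mean on the liver arrays was 0.93 and on the muscle arrays 1.11, but the bone arrays, at 2.23 and 1.46, lay above the 22 arrays, which ran from -0.30 to 0.98.

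All 4 megakaryocyte and platelet genes were higher, beside 9.58% of all probes, and in each, bone replicate 1 was far above replicate 2. With the slide as a fixed block 1 of the 4 was called, Rgs18, and with scan day 2. Rgs18, a regulator of G protein signalling in platelets, was at 7.54 and 3.31 in bone. The 22 arrays ran from -0.03 through a median of 0.41 to 4.57, with lung on top, so replicate 1 lay above all of them and replicate 2 did not. Its difference was 4.52 (SE 0.57, adjusted p = 3.82e-06), and 2.41 without bone replicate 1. F5, coagulation factor V, was at 2.57 on replicate 2 and 2.43 higher on replicate 1, against -0.78 to 5.83 (median 1.77), with liver above bone. Selp, the adhesion protein P-selectin of platelets and vessel lining, was at 2.77 and 0.04 against -0.44 to 0.75 (median -0.03). Gp1bb, a subunit of the platelet receptor for von Willebrand factor, was at 3.68 and 0.55 against -0.38 to 2.27 (median 0.61). On replicate 2 Selp and Gp1bb were inside the range of the other tissues. F5 differed by 2.08 (SE 0.53, adjusted p = 0.00379), Selp by 1.45 (SE 0.36, adjusted p = 0.00285) and Gp1bb by 1.39 (SE 0.41, adjusted p = 0.0104). Without bone replicate 1 only Rgs18 of the 4 was still called, and the differences of the others were 0.87, 0.09 and -0.17. The SE pools the spread within all 15 tissues, so for genes like these it is smaller than the bone arrays alone would give (SD 2.98 for Rgs18).

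**Figure D3:**
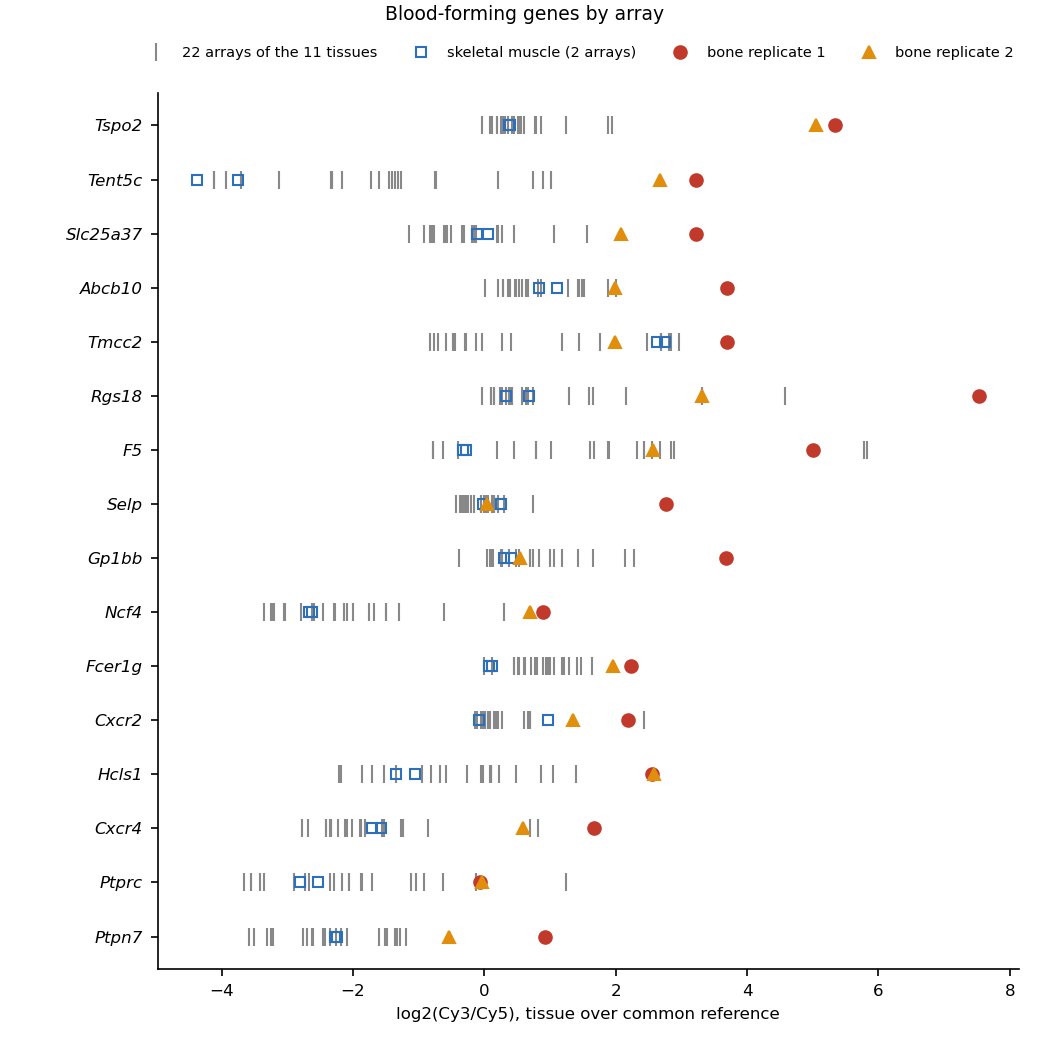
Log2(Cy3/Cy5) of 16 genes of red cells, platelets and leukocytes on bone replicate 1 (circle), bone replicate 2 (triangle), the 2 muscle arrays (squares) and the 22 arrays of the 11 tissues (ticks). Tspo2, Tent5c, Slc25a37, Ncf4, Fcer1g, Hcls1 and Ptpn7 have both bone arrays right of all ticks, and the 4 platelet genes Rgs18, F5, Selp and Gp1bb have the circle far right of the triangle.

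Of 8 genes that most leukocytes use, 6 were higher in bone (75%, beside 9.58% of all probes) and 5 of these were above muscle. Hcls1, an actin regulator of blood cells, was at 2.56 and 2.58 in bone against -2.21, -0.16 and 1.39 as the lowest, median and highest of the 22. The bone arrays were nearly equal and above all others, with a difference of 3.02 (SE 0.18, adjusted p = 4.61e-10, 8.09-fold). Cxcr4, the chemokine receptor that holds stem cells and leukocytes in marrow, was at 1.67 and 0.58 against -2.77, -1.96 and 0.82, and the second of these values was below the lung arrays. It differed by 2.83 (SE 0.27, adjusted p = 1.44e-07). Ptprc, the common leukocyte antigen CD45, was at -0.06 and -0.04 in bone, within -3.66 to 1.24 (median -2.11), and a lung array was above bone. It differed by 1.98 (SE 0.29, adjusted p = 1.89e-05). The phosphatase Inpp5d and Parvg differed by 2.06 (SE 0.36) and 1.43 (SE 0.13). Rcsd1 differed by 2.65 (SE 0.17) but was higher in muscle (3.17) than in bone (2.75) and was set aside. Dock10 and Rgs1 did not pass the test.

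In the myeloid list 6 of 18 genes were higher (33.3%, beside 9.58% of all probes), all above muscle. With median centring 3 were higher, beside 1221 of 21026 probes. Ncf4, a subunit of the oxidase by which neutrophils kill microbes, led with 0.89 and 0.69 in bone against -3.36, -2.29 and 0.30, with no overlap. It differed by 2.99 (SE 0.17, adjusted p = 2.70e-10, 7.96-fold). Fcer1g, the signalling chain of antibody receptors, was at 2.24 and 1.96 against -0.01 to 1.64 (median 0.85), also with no overlap, and differed by 1.25 (SE 0.12, adjusted p = 1.26e-07). Il8rb, now named Cxcr2, is the neutrophil receptor for chemokines. It was at 2.19 and 1.35 and well above background on 6 of the 22 arrays, which ran from -0.14 through 0.08 to 2.44 on a lung array. It differed by 1.51 (SE 0.30, adjusted p = 0.000503), and by 4.90 with the value table, so its size depends on the processing. The decoy receptor Il1r2, the antibody receptor Fcgr3 and the macrophage pore protein Mpeg1 differed by 1.72 (SE 0.26), 1.52 (SE 0.21) and 1.21 (SE 0.30). For these 3 some arrays of stomach, bladder, fat or lung were above bone, and Mpeg1 differed by 0.75 without bone replicate 1, under the size required. In Il1r2 the skin arrays, outside the 22, were at 4.96 and 4.755. The other 12 ran from -0.82 for Marco to 0.92 for Fcgr2b, and within slides the median myeloid gene was 1.13 above large intestine (17 of 18 genes higher on bone replicate 1) and level with fat (-0.02, 9 of 18 higher on bone replicate 2).

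Lymphoid genes gave 3 calls of 21, 14.3% beside 9.58% of all probes. Ptpn7, a phosphatase of blood cells, was at 0.92 and -0.54 against -3.59, -2.39 and -1.19, with no overlap, and differed by 2.52 (SE 0.25, adjusted p = 2.72e-07). Stat4, a transcription factor of T and natural killer cells, was at 0.13 and -0.05 within -2.76 to 0.28 and differed by 1.52 (SE 0.17, adjusted p = 1.27e-06). The T cell receptor partner Cd28 differed by 1.05 (SE 0.23, adjusted p = 0.00117) but was higher in muscle, at 0.77 and 1.38, than in bone, at -0.79 and -0.15. The other 18 genes were not called. Among them are the T cell genes Pdcd1, an inhibitory receptor (0.92), and Cd247, Ctla4 and Icos (-0.15 to 0.00), of which the last 3 were not well above background on both bone arrays, so that their values near 0 say little.

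Genes of cell division formed the largest group, with 43 of 46 higher in bone, all 43 above muscle, and 29 with both bone arrays above all 22. Over all probes 9.58% were higher and 4.38% did not overlap. Bone had the highest mean of the 15 tissues for 38 of the 46, beside 1187 of the 21026 probes tested. Aspm, a protein of the spindle poles, was at -0.13 and -1.29 in bone against -5.83, -4.51 and -2.52 as the lowest, median and highest of the 22. It differed by 3.67 (SE 0.34, adjusted p = 9.41e-08, 12.8-fold). All its values were below 0, the level of the reference, in bone too. Ncapg, a condensin subunit that packs mitotic chromosomes, was at -0.90 and -1.72 against -6.37 to -2.78 (median -5.07) and differed by 3.47 (SE 0.29, adjusted p = 4.42e-08). Birc5, survivin, was at 0.10 and -0.90 against -5.38 to -1.49 (median -4.31) and differed by 3.42 (SE 0.21, adjusted p = 5.79e-10). In all 3 small intestine had the highest mean of the 11 tissues, and for Aspm skin, outside that mean, lay above it at -2.32.

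Other members of the list were higher as well. The replication helicase genes Mcm3, Mcm6 and Mcm7 differed by 2.08 (SE 0.19), 2.08 (SE 0.22) and 1.97 (SE 0.18), and Rrm1 and Tyms, which supply DNA precursors, by 2.53 (SE 0.25) and 1.56 (SE 0.14). The cyclin Ccna2 differed by 2.08 (SE 0.19), the mitotic kinases Plk1 and Aurkb by 2.03 (SE 0.19) and 2.29 (SE 0.25), and the ubiquitin carrier Ube2c by 1.94 (SE 0.25). Without bone replicate 1 the difference was 1.43 for Aurkb and 1.05 for Ube2c. For these genes both bone arrays lay above all 22 except for Plk1, Aurkb and Ube2c. Pkmyt1, Mcm8 and Gins4 were not called, with differences of 0.85, 0.55 and 0.45. On the list mean the bone arrays were at -0.51 and -1.31 and the 22 arrays between -3.47 and -1.92, with no overlap. The call counts were 40 without bone replicate 1 and 44 without bone replicate 2.

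The promoters of these genes are shown because many genes active in division carry a cell cycle homology region near the start site, often with a CCAAT box upstream. RefSeq promoters of GRCm38.p6 of the same length around each start, were found for 34 of the 46 genes. The letters TTTGAA on either strand stood in 16 of the 34 (47.1%), against 5466 of 27025 genes (20.2%), and CCAAT on either strand in 25 (73.5%) against 41.1%. For erythroid genes, promoters were found for 9 of the 14, and AGATAA on either strand, a motif bound by GATA factors, stood in 2 (22.2%) against 12.7% of all genes. These are descriptions of letters, and a gene with several starts counted once if any promoter held the motif. Stretches around the start follow, 5' to 3' on the strand of the gene, for the leading cell division genes Aspm and Ncapg, for Ncapg2 and Ube2c, and for the erythroid gene Tmcc2. Capitals mark TTTGAA or its reverse TTCAAA and CCAAT or its reverse ATTGG, and in Tmcc2 AGATAA in its reverse form TTATCT. The stretches were chosen because they hold a motif. Birc5 held neither TTTGAA nor CCAAT, and of 3 starts of Tmcc2 only the one shown held AGATAA.
Aspm (chr1:139454648-139454797, plus strand): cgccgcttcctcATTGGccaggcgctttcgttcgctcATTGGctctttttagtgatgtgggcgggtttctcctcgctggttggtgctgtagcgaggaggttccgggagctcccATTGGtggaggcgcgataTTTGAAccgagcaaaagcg
Ncapg (chr5:45669800-45669949, plus strand): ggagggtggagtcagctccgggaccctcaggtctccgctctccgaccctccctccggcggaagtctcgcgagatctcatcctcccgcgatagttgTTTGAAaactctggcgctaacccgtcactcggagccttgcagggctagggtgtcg
Ncapg2 (chr12:116405311-116405460, plus strand): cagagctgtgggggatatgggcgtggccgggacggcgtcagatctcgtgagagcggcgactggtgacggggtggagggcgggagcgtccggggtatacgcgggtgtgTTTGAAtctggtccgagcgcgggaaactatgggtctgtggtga
Ube2c (chr2:164769804-164769953, plus strand): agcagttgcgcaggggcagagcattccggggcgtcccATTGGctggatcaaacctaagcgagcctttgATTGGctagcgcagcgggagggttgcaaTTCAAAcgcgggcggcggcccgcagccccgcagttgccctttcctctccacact
Tmcc2 (chr1:132367924-132368073, minus strand): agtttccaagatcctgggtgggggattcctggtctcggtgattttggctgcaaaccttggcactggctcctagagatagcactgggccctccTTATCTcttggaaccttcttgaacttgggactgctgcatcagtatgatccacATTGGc

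In Aspm the TTTGAA began 7 bases past the start. In Ncapg, Ncapg2 and Ube2c it began at -30, -18 and -29, and Tmcc2 held its TTATCT at -33. Ncapg2, a condensin subunit as well, differed by 2.52 (SE 0.25, adjusted p = 2.06e-07) with 0.91 and -0.17 in bone against -2.96 to -1.16. Fignl1, a DNA repair ATPase outside the list, was among the 20 leading named genes with 0.17 and -1.22 against -5.16, -4.45 and -2.52 and a difference of 3.58 (SE 0.32, adjusted p = 5.82e-08).

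**Figure D4:**
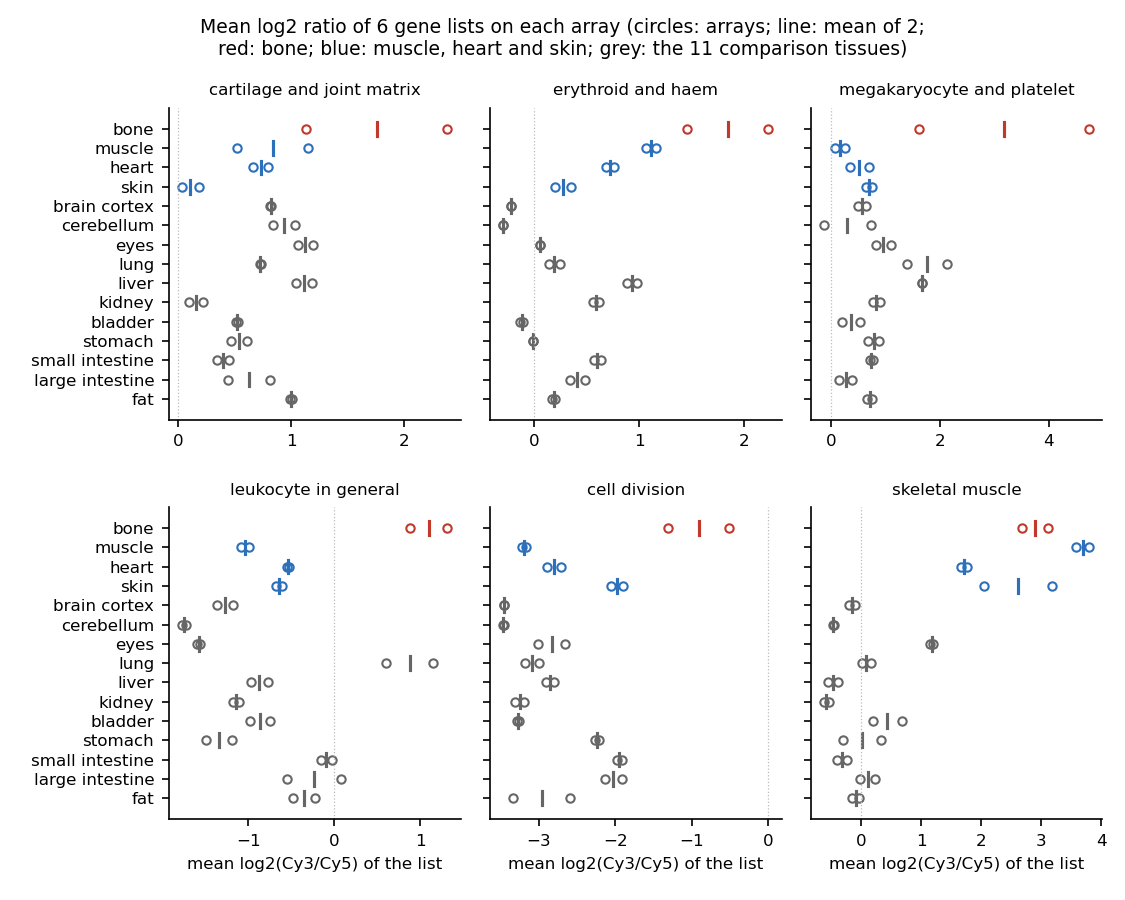
Mean log2(Cy3/Cy5) over the genes of 6 lists on each of the 30 arrays (circles) with the mean of each tissue (line). Bone, in red, has the highest mean for cartilage, erythroid, platelet, leukocyte and cell division genes and is second to muscle for the skeletal muscle list. On the cartilage list bone replicate 1 (1.135) lies below an array each of eyes, liver and muscle.

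The 2 bone arrays differed in several lists. Over all probes replicate 1 was above replicate 2 for 53.3%, with a median difference of 0.03. Replicate 1 was above replicate 2 for 13 of 14 erythroid genes (median difference 0.75), 4 of 4 platelet genes (2.93) and 41 of 46 cell division genes (0.90). Replicate 2 was above replicate 1 for 7 of 8 cartilage genes (median difference of replicate 1 minus replicate 2 of -0.57) and 17 of 21 osteoblast and matrix genes (-0.82). Leukocyte, myeloid and lymphoid genes differed less, with medians of 0.44, 0.18 and 0.09. Replicate 1 was also above replicate 2 for 4 of 4 vessel genes (0.86) and 2 of 2 nerve genes (0.55), and the part of vessel RNA in the platelet result was not tested. Among single skeletal genes the differences reached -4.75 for Prg4 and -3.83 for Fn1, and among blood-forming genes 4.22 for Rgs18.

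For the erythroid list the mean of the genes differed by 0.77 between the bone arrays, while the 14 other tissues reached at most 0.16 between their replicates. For the platelet list it was 3.13 against at most 0.86, for the cartilage list -1.25 against at most 0.62, and for the osteoblast and matrix list -0.97 against at most 0.49. In these 4 lists no other tissue had a pair of arrays as far apart. The same held for 4 further lists, vessel (1.31 against at most 0.30), nerve (0.55 against 0.48), cell division (0.80 against 0.74) and skin (-0.38 against 0.21), so the gap was not limited to skeletal and blood-forming genes. With 2 arrays this has no test. The arrays also came from different slides and scan days, each shared with 1 array of another tissue, so animal, piece of tissue, slide and scan day cannot be told apart in this difference. Measured within its slide, replicate 1 was above large intestine replicate 2 for 13 of 14 erythroid and 44 of 46 cell division genes, and replicate 2 was above fat replicate 2 for 14 of 14 and 44 of 46. Over all probes these counts were 11001 and 10999 of 21026. For the osteoblast and matrix list they were 12 of 21 in both slides, and for the osteoclast list 1 of 4 in both.

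**Figure D5:**
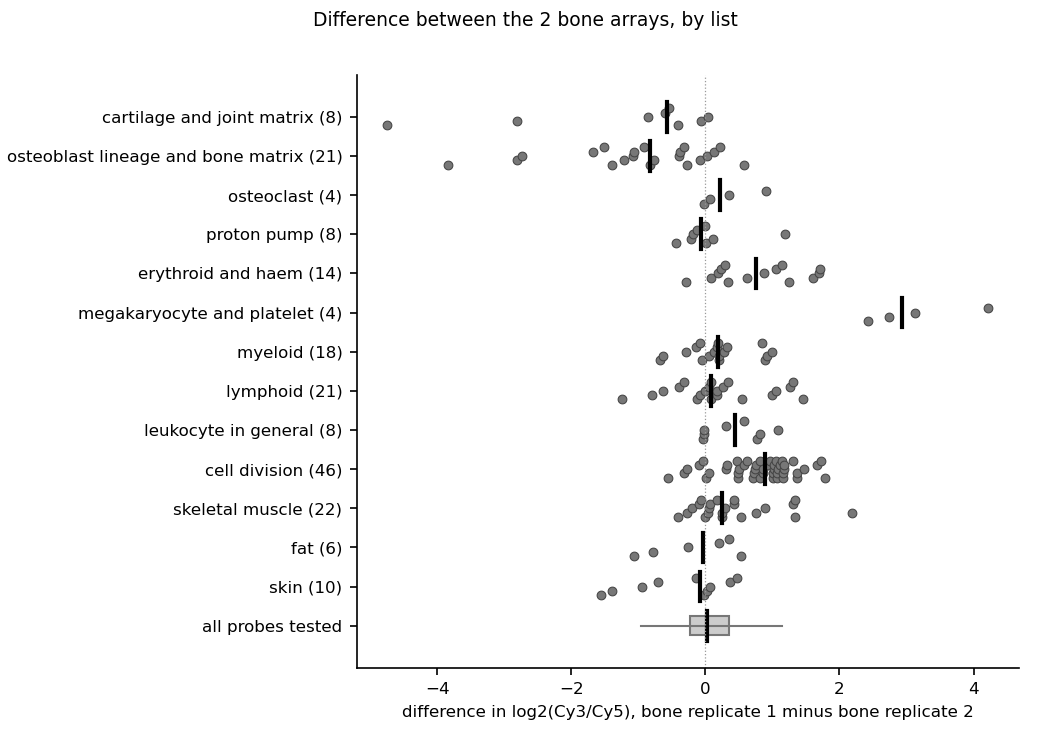
Difference in log2(Cy3/Cy5) between bone replicate 1 and bone replicate 2 for each member of 13 gene lists (points), with list medians as black bars and the spread over all probes tested below (median, quartiles, 5th and 95th percentiles). Cartilage and matrix genes lie mostly left of 0 (higher on replicate 2), and erythroid, platelet and cell division genes mostly right of it.

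Genes of skeletal muscle moved with bone. Of 22 listed muscle genes 17 were higher in bone than in the 11 tissues (77.3%, beside 9.58% of all probes). Of the 17, 7 were also above muscle and stayed after the set-aside step. On the list mean the bone arrays were at 3.11 and 2.68, muscle at 3.69 and the 22 arrays between -0.62 and 1.198, with eyes on top. Of the 20 leading named genes, 6 were from this list (Actn3, Ankrd23, Tnni1, Tmem182, Myl1 and Actn2) and Myoz3, deposited as 4833419K08Rik, is a protein of the muscle Z-disc as well. Actn3, an actinin of fast muscle fibres, was at 5.52 and 5.46 in bone and at 4.87 and 4.92 in muscle, against -3.44, -2.78 and 1.52. With median centring 1 of these muscle genes stayed above muscle, Tnni1, and Actn3 and Ankrd23 were lower in bone than in muscle. The part of muscle RNA in the results for other genes was not tested, beyond the values in muscle given beside them.

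Lists of other neighbouring tissues were set against the same mean. It holds fat itself and stomach, where the skin list means were 3.17 and 3.28. The calls therefore say little about fat or skin RNA in bone. None of 6 fat genes and none of 10 skin genes was higher, while 1 and 3 of them were lower, and none of 4 vessel and 2 nerve genes passed the test. Over all probes 9.58% were higher and 10.4% lower, beside 1 of 6 fat genes and 3 of 10 skin genes lower. The fat list mean was 0.05 and 0.22 on the bone arrays, inside the range of the 22 (-0.46 to 2.68), and the skin list mean was -0.66 and -0.28 (-0.76 to 3.28). The vessel list mean was 3.44 on replicate 1, inside the range of the 22 (2.265 to 3.695), and 2.13 on replicate 2, below it. Among vessel genes Sox17 was at 3.62 on replicate 1 and 0.73 on replicate 2.

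Among the 20 leading named genes 2 have no role given here. The gene deposited as 2510003D18Rik was at 4.86 and 1.62 in bone, with the 22 arrays between -0.12 and 0.41 and 5 of them well above background. The fitted difference of 2510003D18Rik was 3.21 (SE 0.41, adjusted p = 4.66e-06). It was 1.59 without bone replicate 1, and 6.41 with processed signals. The gene 1700020L24Rik was at 3.94 and 3.21 against -0.62, 0.50 and 2.21 and differed by 2.94 (SE 0.16, adjusted p = 1.67e-10). Their muscle means were -0.07 and -0.37. The 20 leading genes, Tspo2, Tent5c, Fmod, Hcls1, Ncf4, Aspm, Ncapg and Birc5 among them, were chosen for lying above muscle and above all 22 arrays, so these properties are no finding.

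On the lower side, both bone arrays lay below all 22 for 43 of the named genes that were called. Pm20d1, an enzyme that makes N-acyl amino acids, was at -1.04 and -0.07 in bone against 0.41, 1.98 and 6.16 as the lowest, median and highest of the 22, with liver on top. It fell by 3.28 (SE 0.32, adjusted p = 1.89e-07). Adora1, the adenosine A1 receptor, was at 0.06 and 0.17, with 1 bone array well above background, against 1.68, 3.41 and 4.36, and had a fitted difference of -3.01 (SE 0.14, adjusted p = 2.62e-11), with bone close to background. The genes of this paragraph were chosen for lying below all 22 arrays. The beta-1 adrenergic receptor gene Adrb1 was not well above background on either bone array and was at least 5.37-fold lower than in the 11 tissues (adjusted p = 7.83e-11), a bound on the Cy3 level after loess and quantile scaling of the reference channel, open to dye bias as the dyes were not swapped. Arhgef26 (deposited as 4631416L12Rik), Abhd14b, Sdr42e1 (4632417N05Rik), Fam241b (2010107G23Rik), Camsap3 (2310057J16Rik), Flacc1 (Als2cr12) and Shtn1 (4930506M07Rik) fell by 2.12 to 3.08.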

How the data were processed

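Gene expression was measured on 30 two-colour Agilent arrays, 2 for each of 15 tissues. The authors extracted spots with Agilent Feature Extraction 9.5.1.1, and the deposited spot files hold the mean signal and local background of each channel as an intensity. The authors' value table gives 25030 probes on a log10 scale. Set against the processed signals of 11700 bright probes, it followed log10 of Cy3 (slope 0.998) less the deviation of log10 of Cy5 (slope -0.997). How the authors made that table is not given in the sources used here.

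Here the mean signals were background-corrected by normexp (offset 50) and normalised by loess within each array, with control and outlier spots given no weight. Control spots and 475 outlier spots were left out, and spots of a probe were averaged. No noncontrol Cy3 spot was saturated. A probe of the value table was tested when both arrays of any 1 tissue had Cy3 well above background (21026 probes, 84.0%). Array medians of Cy3 ran from 85.7 to 175 scanner units, and the number of arrays limits the precision. Missing values among the 24 arrays of the comparison affected 162 probes.

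A linear model with 1 coefficient per tissue was fitted over all 30 arrays with limma 3.58.1 in R 4.3.3 (residual df 15, prior df 2.95). Bone was tested against the mean of 11 tissues, two-sided, with Benjamini-Hochberg adjustment over all probes, and called at an adjusted p under 0.05 and a log2 difference of at least 1. The set-aside step compared the means of bone and muscle with no test. The method was tested on simulated data.

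Symbols came from the probe lists of the study and were used as names only. Of 5049 tested probes with a symbol, 3167 had a symbol current in a RefSeq gene table (GRCm38.p6) and 1535 a synonym there. The members and gene lists were chosen with earlier results of these data known, so counts over lists are descriptions. Named genes were the members of the lists, the 20 with the largest positive difference among called probes above muscle with no overlap with the 22 arrays, and the 10 with the largest negative difference with no overlap. The text prints those called, those that set a range and those whose role bears on bone. Ocstamp was matched through its older symbol. Some genes that these rules name are not reported here. Alternatives covered the background correction, scaling, filter, probe set, size threshold, comparison tissues, slide and scan day (11 slides, 5 scan days), replicate block and each array left out.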

Additional observations from a re-analysis of the deposited data

How the results depend on the processing

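Counts of probes higher in bone, lower in bone, and higher in bone and above muscle were 2015, 2195 and 1342. When the scanner software's processed signals were used, the counts higher and higher above muscle were 3250 and 2121, and with the value table of the series 3194 and 2072. With median centring they were 1221 and 756. At a required log2 difference of 2 the 3 counts were 750, 488 and 523. With 1 array left out in turn they ran from 1922 to 2372, from 2084 to 2311 and from 1314 to 1682. The other alternatives, among them both stricter forms of the set-aside step (1053 and 1190 for probes higher in bone and above skeletal muscle), the slide or scan day as a block, and 9 or 14 comparison tissues, kept each count within 1.5 times. The cause of these shifts was not tested.

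The replicate block changed the counts to 2020, 2202 and 1346 and no call of a named gene. Same-numbered arrays shared little deviation in most pairs of tissues (median r 0.05, from -0.25 to 0.34 over 105 pairs), though r was above 0.1 in 33. The numbers were not taken as pairs. Of the named genes that were called, 2 changed sign, Gp1bb without bone replicate 1 (-0.17, and 2.96 without bone replicate 2) and Fn1 without bone replicate 2 (-0.49, and 3.35 without bone replicate 1). Under the slide as a fixed block the calls were 39 of 46 for cell division, 10 of 14 for erythroid genes, 12 of 21 for osteoblast and matrix genes and 1 of 4 for platelet genes. Median centring gave 36, 7, 7 and 4 calls. Among the called genes described above, Acan, Chi3l1, Fn1, Trem2, Dyrk3, Slc25a38, Riok3, Urod, Fcer1g, Il8rb, Mpeg1, Parvg, Cd28 and Ihh were not called with median centring (sizes from 0.50 for Chi3l1 to 1.00 for Parvg), and Atp6v1h, F5, Selp, Gp1bb, Slc25a38 and Urod were not called with the slide as a fixed block. With processed signals 11 of 18 myeloid and 6 of 21 lymphoid genes were called.

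Bone rests on 2 arrays (median SD 0.20 on the log2 scale, 0.07 to 0.34 in the other tissues), and its p-values on a spread pooled over tissues. Of the tested probes 24.01% have a symbol and the rest are not named here, so the lists hold only a part of the genes of these cells.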
